A study of Mus musculus with 8 samples.

Results

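The 9 genes described here, Bank1, Ms4a1, Cd79a, Cd79b, Pax5, Ebf1, Blk, Cr2 and Ciita, are genes of B lymphocytes, and their H3K4me3 signal was read in lung tumor cells that the study describes as sorted negative for CD45, the surface protein of all leukocytes. The members were taken by name, and every peak that the authors' table assigns to 1 of them was kept. Of the 9 genes, 8 had a listed peak and Cd79a had none, and together they held 19 of the 35486 listed peaks, in a table that assigns peaks to 20871 genes. The list was drawn up with differences between the groups at B cell genes already known from these 4 libraries. The values of the members, and the counts of members past a threshold, are therefore given as a description, without p-values.

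H3K4me3 was measured by Cleavage Under Targets and Tagmentation (CUT&Tag), in which an enzyme tethered to an antibody cuts out the chromatin that carries the mark. Tumor cells were sorted by the study as CD45-CD31-EpCAM+ from lungs of KL mice (2 libraries, replicates 1 and 2) and of KLG4m/m mice (2 libraries, replicates 3 and 4), which share the tumor-forming alleles of the KL model, Lkb1fl/fl among them, while the second group also carries Gpx4m/m. Both groups received intranasal Ad-Cre, an adenovirus that carries Cre recombinase, and tamoxifen, and the lungs were taken 10 weeks after Ad-Cre. In both groups Cre recombines these alleles, and so removes Lkb1, in any lung cell that the virus enters. In KLG4m/m mice Cre also starts the expression of a second, tamoxifen-dependent recombinase (DreERT2), which deletes Gpx4, the enzyme that reduces phospholipid hydroperoxides, so that the groups differ in Gpx4 alone by their labels. The study's results and its CUT&Tag methods give the gate with CD45-. Other sections of its methods, as read here, print CD45+ for tumor cells in places, and why they differ was not resolved. The labels give no age and state a total number of mice that does not equal the number of libraries. The study's figure legend gives 2 mice per group for these data. Which of these holds was not settled, so p-values measure the spread between libraries, which may in part be technical. The comparison asks where the mark differs between tumor cells with and without Gpx4.

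H3K4me3 sits on nucleosomes around the start sites of genes that are active or ready to be transcribed, and is weak or missing at genes that a cell type keeps silent. In B cells, Ebf1 and Pax5 are the transcription factors that set up and hold the lineage. Cd79a and Cd79b are the signalling chains of the B cell receptor, Blk is a Src-family kinase and Bank1 an adaptor of that receptor's signalling, Cr2 (CD21) is the complement receptor of the B cell co-receptor, and Ms4a1 encodes CD20. Ciita is the coactivator that switches on MHC class II genes, in B cells and other antigen-presenting cells and, after interferon-gamma, in many other cells, so it is the member least tied to the B lineage.

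The promoter sequences of 4 members are printed, whether or not a peak lay there. Bank1 had the largest difference, Pax5 and Cr2 are a lineage factor and a co-receptor with weak peaks, and Cd79a had no listed peak. The sequences are the 250 bases 5' of the RefSeq start site in GRCm38.p6, written 5' to 3' on the gene's strand. The table's peak positions belong to another build and were not carried over. Capitals mark 2 short motifs, the E-box CAGGTG that binds the lineage factor E2A, and the ETS core AGGAAG that binds factors such as PU.1, each searched on both strands.
Bank1, chr3:136326067-136326316, minus strand: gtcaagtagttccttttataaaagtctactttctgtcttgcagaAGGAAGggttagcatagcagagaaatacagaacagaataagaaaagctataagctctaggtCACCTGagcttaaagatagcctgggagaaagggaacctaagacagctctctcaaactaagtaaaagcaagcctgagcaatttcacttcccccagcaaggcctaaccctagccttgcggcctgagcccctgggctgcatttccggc
Cd79a, chr7:24897247-24897496, plus strand: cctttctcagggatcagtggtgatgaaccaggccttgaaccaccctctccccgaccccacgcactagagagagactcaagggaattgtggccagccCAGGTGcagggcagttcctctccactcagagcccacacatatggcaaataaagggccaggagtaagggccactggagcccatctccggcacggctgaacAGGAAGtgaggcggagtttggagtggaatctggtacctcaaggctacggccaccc
Pax5, chr4:44710695-44710944, minus strand: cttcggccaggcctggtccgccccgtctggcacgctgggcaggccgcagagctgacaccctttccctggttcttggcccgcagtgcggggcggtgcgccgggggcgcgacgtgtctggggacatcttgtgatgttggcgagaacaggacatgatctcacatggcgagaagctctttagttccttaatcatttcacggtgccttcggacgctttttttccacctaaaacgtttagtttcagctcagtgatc
Cr2, chr1:195176720-195176969, minus strand: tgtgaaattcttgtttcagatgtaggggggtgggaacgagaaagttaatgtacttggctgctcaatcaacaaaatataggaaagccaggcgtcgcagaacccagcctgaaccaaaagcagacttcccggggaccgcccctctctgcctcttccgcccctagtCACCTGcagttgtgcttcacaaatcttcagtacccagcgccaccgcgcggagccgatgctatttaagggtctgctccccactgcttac

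An E-box lay 145 to 140 bases upstream of the start in Bank1, 154 to 149 bases upstream in Cd79a and 88 to 83 bases upstream in Cr2. It is a common word, found in 17.2% of 32851 RefSeq promoters of this length. The ETS core lay 206 to 201 bases upstream in Bank1 and 55 to 50 bases upstream in Cd79a, and 29.5% of promoters held it. Of the 9 members, 5 had a RefSeq promoter entry, which left Ms4a1, Cd79b, Blk and Ciita unread. Among those 5, none held the EBF1 palindrome, TCCC and GGGA with 2 bases between (0.779% of promoters), or the octamer ATGCAAAT (1.6%), and 1, Ebf1, held an IRF pair, GAAA and GAAA with 2 bases between (2.98%), 155 to 146 bases upstream of its first start site. Bank1, with peaks, and Cd79a, without, thus shared both motifs. A match or its absence is a property of the letters only.

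The 4 libraries held 3244495 to 3463731 reads in peaks, and library scaling by TMM (trimmed mean of M values) changed them by little, with factors of 0.995 to 1. Levels are given as CPM, reads per 1000000 reads in peaks after that scaling, and differences as log2 fold changes of KLG4m/m over KL. Genes of leukocytes carried the mark in these sorted cells. Ptprc, which encodes CD45, had 54.5 and 59.6 CPM in KL against 70.0 and 62.9 CPM in KLG4m/m, summed over its 2 peaks (log2 fold change 0.22, edgeR adjusted p = 0.16). Epcam, the marker the cells were selected for, had 52.5 and 57.6 CPM in KL against 33.4 and 29.0 CPM in KLG4m/m, also over 2 peaks, a log2 fold change of -0.82 that passed (edgeR adjusted p = 1.6e-06). In KL the signals of Ptprc and Epcam, per 2 peaks of equal length, overlapped. Of 17 pan-leukocyte genes 15 had a listed peak, while 15 of 16 genes of unrelated organs had none. At Gpx4 the single promoter peak held 242 and 236 reads in KL and 304 and 301 reads in KLG4m/m (log2 fold change 0.40, edgeR adjusted p = 0.0085). The reads over a start site do not show whether the part between the rox sites is gone, so they do not check the labels.

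All 19 member peaks were weak beside the promoter peaks of the table. Each was 400 bp long, so levels can be compared between genes without a further correction for length, and each held between 8 and 110 reads per library. The median promoter peak of the table had 34.2 CPM over 19989 promoter peaks, and every member peak was below it, from the Ebf1 peak 4.2 kb inside the gene, at the 3.16th percentile of promoter peaks, to the Ciita promoter peak at the 42.9th. Over all 35486 listed peaks the median was lower, at 13.4 CPM. The Cd79b promoter peak, some Ebf1 peaks and the Ciita peak were above it, Ciita at the 64.8th percentile of all peaks. Of the 19 peaks, 14 were annotated as promoter peaks and 5 were not, and 4 lay over a start site, in Bank1, Ms4a1, Ebf1 and Cr2. At these depths counting error is a large part of every value, and a difference of a few reads should not be read as a difference in the mark.

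Across the 19 peaks the log2 fold change was above 0 in 15 and below 0 in 4, with a median of 0.42, whereas the median of all 35486 peaks was 0.00771. Of the 19, 4 were past the threshold (edgeR adjusted p under 0.05) as higher in KLG4m/m and 0 as lower, beside 3.10% of all peaks higher and 5.52% lower. The 4 were both Bank1 peaks, the Blk promoter peak and the upstream Pax5 peak. At an unadjusted p under 0.05, 8 of the 19 passed in either direction, beside 8738 of all 35486 peaks. Without regard to the test, both KLG4m/m libraries were above both KL libraries at 14 peaks and below them at 3, beside 26.7% and 27.2% of all peaks. Reads summed over each gene's peaks gave 7 genes in which the groups did not overlap with KLG4m/m above, and 1, Ciita, with KLG4m/m below (27.1% and 29.3% of all genes). On these sums Bank1, Ms4a1, Pax5 and Blk were past the threshold as higher (4 genes, beside 5.38% of all genes), Ciita as lower (1 gene, beside 9.63%), and Cd79b, Ebf1 and Cr2 did not pass. The members were chosen on this comparison, so nothing is read from these shares. With DESeq2 only Bank1 of the 8 genes passed, with limma on log2(CPM + 1) none did (6 at an unadjusted p under 0.05), and without replicate 3 or without replicate 4 of KLG4m/m no gene in the whole table passed (3827 to 4186 at an unadjusted p under 0.05); the cause was not tested. Over all 20871 genes DESeq2 called 122 higher and 337 lower, and limma 36 higher and 83 lower (4767 at an unadjusted p under 0.05). With each library centred on its median gene, the median log2 fold change of all genes moved from 0.00235 to 0.0934. With that shift the table's calls turned from 1122 genes higher and 2010 lower to 2839 higher and 1424 lower. Those of the members turned from 4 and 1 to 6 and 0.

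**Figure D1:**
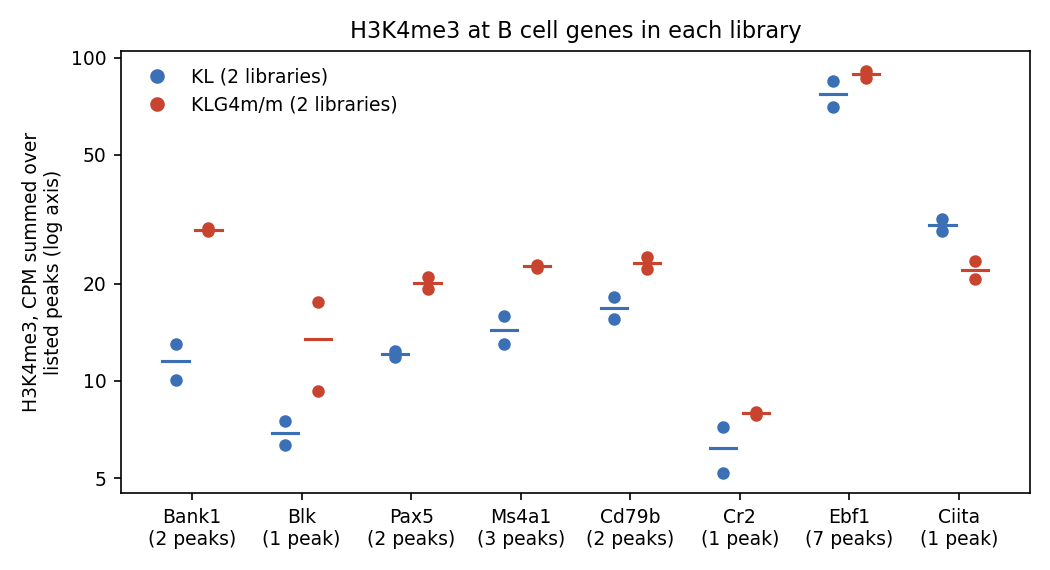
H3K4me3 at the 8 member genes with a listed peak, as TMM-scaled CPM summed over each gene's peaks (y axis) in each library, drawn on a log axis, with points for libraries and short lines for group means. The KLG4m/m points lie above the KL points for 7 genes and below them for Ciita, and the widest gap is at Bank1 (11.5 against 29.3 CPM).

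Bank1, the scaffold that links B cell receptor signalling to calcium release, differed most. Its start-site peak, at 136031586 to 136031986 on chromosome 3 in the build of the authors' table, had 29 and 25 reads in KL against 63 and 58 in KLG4m/m, 7.77 ± 0.807 CPM against 18.1 ± 0.221 CPM (SD, n = 2 libraries), a log2 fold change of 1.22 with an SE of 0.22. The peak 875 bp inside the gene (136030500 to 136030900) held 16 and 10 reads in KL against 39 and 36 reads in KLG4m/m, a log2 fold change of 1.58 (SE 0.31). In both peaks the lowest KLG4m/m library had at least 2 times the reads of the highest KL library, and the KLG4m/m libraries were close to each other. Summed over both, Bank1 had 13.0 and 10.1 CPM in KL and 29.6 and 29.0 CPM in KLG4m/m, a log2 fold change of 1.34 (SE 0.19). Bank1's log2 fold change was 1.54 without KL replicate 1 and 1.18 without replicate 2, and 1.33 without KLG4m/m replicate 3 and 1.36 without replicate 4. With limma on log2(CPM + 1) the gene did not pass (1.28). Its start-site peak did not pass with DESeq2 (1.22).

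Further inside Bank1 the table lists a pair of peaks under the name of a neighbour, Gm5281, and these were not counted among the members. The peak in intron 9 of 15 held 8 and 12 reads in KL against 20 and 14 in KLG4m/m (log2 fold change 0.81), and the peak at exon 8 of 16 held 17 and 31 reads against 38 and 31 (0.58). The groups did not overlap at the first. At the second they met at 31 reads, and only the scaling to library size put them apart, with KLG4m/m above. Within 100 kb of the Bank1 peaks no peak of another gene was listed.

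Blk, the other signalling member, had a single peak 262 bp inside the gene on chromosome 14 (63653974 to 63654374). It held 26 and 22 reads in KL and 32 and 57 reads in KLG4m/m, 6.91 ± 0.808 CPM against 13.5 ± 5.92 CPM (SD, n = 2), a log2 fold change of 0.95 (SE 0.29). The KLG4m/m libraries were further apart than the group means, and replicate 4 carried most of the difference. The log2 fold change was 0.43 without replicate 4 and 1.34 without replicate 3. Blk also missed the threshold without KL replicate 2 (gene value 0.84).

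Of the receptor's signalling chains, Cd79a had no peak in the table and Cd79b had 2. The Cd79b promoter peak on chromosome 11 (106204538 to 106204938, 450 bp inside the gene) held 52 and 39 reads in KL against 64 and 51 in KLG4m/m (log2 fold change 0.39, SE 0.21). The second peak assigned to Cd79b lay 10.7 kb upstream, within intron 19 of 24 of the sodium channel gene Scn4a, and held 11 and 15 reads against 19 and 21 (0.67, SE 0.36). Neither peak passed, and the promoter peak of KL replicate 1, with 52 reads, stood level with that of KLG4m/m replicate 4, with 51, so that only the scaling to library size put the groups apart. For Cd79a, the RefSeq neighbours Rps19 and Arhgef1 had listed peaks with log2 fold changes of 0.04 at the Rps19 promoter and -0.04, 0.01 and 0.37 at those of Arhgef1, none past the threshold. A missing peak says that the signal was not called in this table, and no level can be given for Cd79a.

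The surface members differed from each other. Ms4a1, which encodes the CD20 protein targeted by anti-CD20 antibodies, had 3 peaks on chromosome 19, all within 2 kb of its start. The peak over the start site (11243329 to 11243729) held 20 and 17 reads in KL against 28 and 34 in KLG4m/m (log2 fold change 0.80, SE 0.30), and the peak at 811 bp held 12 and 18 reads against 24 and 27 (0.82, SE 0.33). The peak at 1981 bp held 13 and 20 reads against 25 and 13 (0.26, SE 0.37), with overlapping groups, and its sign turned without KL replicate 1 (-0.02) or KLG4m/m replicate 3 (-0.24). No single Ms4a1 peak passed, while their sum did, with 13.0 and 15.8 CPM in KL against 22.4 and 22.8 CPM in KLG4m/m and a log2 fold change of 0.65 (SE 0.19). Without KL replicate 1 the sum no longer passed, at a log2 fold change of 0.52. Cr2, which binds complement-coated antigen, had a single peak over its start site on chromosome 1 (194858751 to 194859151), with 18 and 25 reads against 27 and 26. Its log2 fold change of 0.36 had an SE of 0.30, and KL replicate 2 lay within 2 reads of both KLG4m/m libraries.

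The lineage factors were listed with 2 peaks for Pax5 and 7 for Ebf1. At Pax5, which keeps B cells from taking other fates, the promoter peak on chromosome 4 (44709092 to 44709492) held 26 and 29 reads in KL against 42 and 31 in KLG4m/m (log2 fold change 0.46, SE 0.26). The peak 3158 bp upstream (44713852 to 44714252), annotated as intergenic, held 15 and 14 reads against 24 and 37 (1.12, SE 0.33) and was past the threshold. The groups did not overlap at either peak, but the upstream value was 0.74 without KLG4m/m replicate 4 and 1.44 without replicate 3, and did not pass when any 1 of the 4 libraries was left out. Summed, Pax5 had 11.8 and 12.4 CPM in KL and 19.2 and 21.0 CPM in KLG4m/m, a log2 fold change of 0.73 (SE 0.21), which missed the threshold without KL replicate 1 (0.70).

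Ebf1, which acts before Pax5 and opens B cell chromatin, showed no common direction over its 7 peaks on chromosome 11. Its 4 promoter peaks lie near several start sites. The peak before the first start, at -370 bp (44501968 to 44502368) held 61 and 60 reads in KL and 53 and 50 in KLG4m/m, a log2 fold change of -0.17 (SE 0.19). The other promoter peaks were above 0, with 66 and 64 against 82 and 77 reads at 1132 bp (0.35), 77 and 57 against 82 and 78 reads at -709 bp (0.31), and 41 and 26 against 43 and 43 reads over a start site (0.42). Inside the gene the values ran from 0.89 at 4.2 kb, with 11 and 8 against 16 and 18 reads, to -0.59 at 64.2 kb, with 20 and 13 against 11 and 10 reads. At 45 kb the groups overlapped at 17 and 16 against 11 and 19 reads (-0.08; 0.30 without KLG4m/m replicate 3). None of the 7 passed, and the sum, 84.5 and 70.2 CPM against 86.6 and 91.0 CPM, gave 0.20 (SE 0.10). A further peak in intron 8 of 15 of Ebf1, listed under Gm51859, held 34 and 29 reads against 21 and 25 (-0.39).

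**Figure D2:**
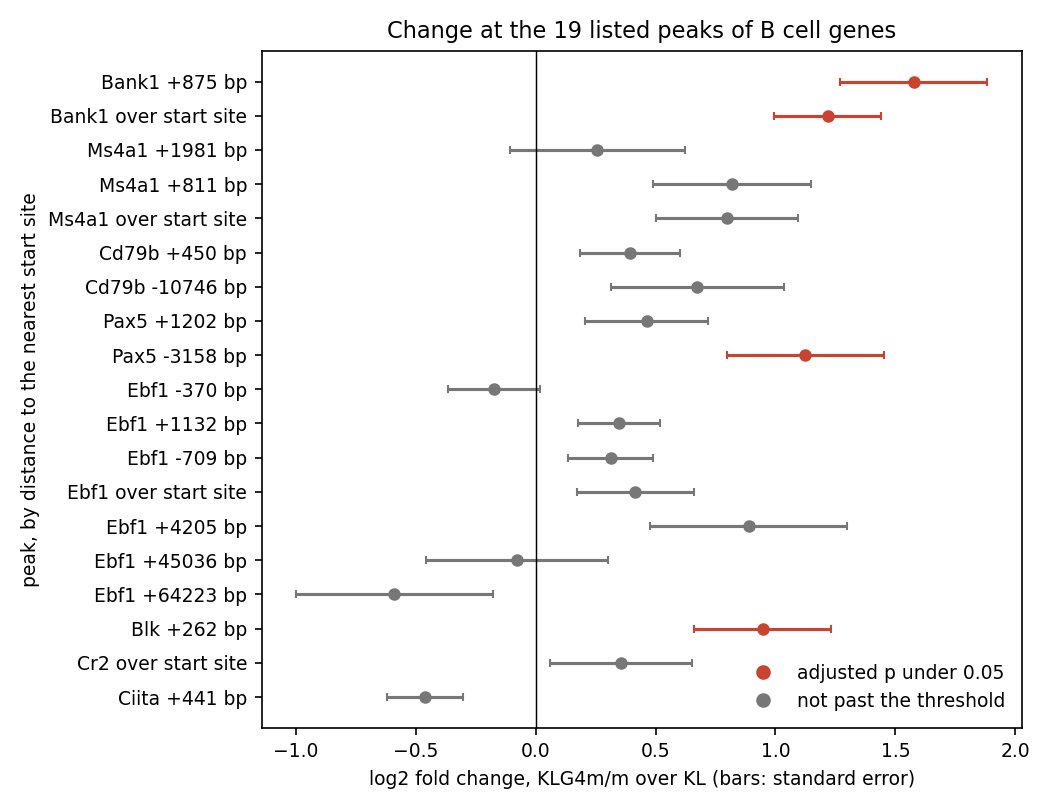
Log2 fold change of KLG4m/m over KL (x axis) with its SE for each of the 19 member peaks, named by gene and distance from the start site, with called peaks set apart by colour. The points spread from -0.59 to 1.58, 15 lie right of 0, and the 4 called peaks belong to Bank1, Blk and Pax5.

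Ciita was the exception among the members. Its single listed peak, 441 bp inside the gene on chromosome 16 (10308086 to 10308486), was the strongest member peak in KL, with 110 and 101 reads there and 71 and 76 reads in KLG4m/m. The level was 30.4 ± 1.80 CPM in KL and 22.1 ± 2.08 CPM in KLG4m/m (SD, n = 2), a log2 fold change of -0.46 (SE 0.16), with no overlap. The peak did not pass over all peaks, while the gene value, -0.47 (SE 0.16), was past the threshold over all genes. It did not pass when any 1 of the 4 libraries was left out (-0.56 to -0.37) or with the libraries centred on their medians (-0.37).

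Some of the genes that Ciita regulates fell as well. The MHC class II list of 13 genes also counts 3 regulators of these genes. They are Rfx5 (log2 fold change 0.11) and Rfxap (-0.10), which did not pass, and Rfxank, which had no listed peak. Of the 13 listed genes, 12 had a peak, 4 fell and 0 rose. Their median log2 fold change was -0.10, where the median of all genes was 0.00235 and 9.63% of all genes fell. The 4 were H2-DMb1, a chain of the peptide loader H2-DM, which had 58.2 and 57.9 CPM in KL against 33.4 and 39.8 CPM in KLG4m/m (log2 fold change -0.67, edgeR adjusted p = 3.6e-05), the class II beta chain H2-Eb1 (-0.43, adjusted p = 0.00058), Cd74, the invariant chain (-0.43, adjusted p = 0.049), and the alpha chain H2-Aa (-0.34, adjusted p = 0.0486). For each of these the KL libraries were above the KLG4m/m libraries, but none passed without KLG4m/m replicate 3 or replicate 4. With median centring 2 genes of the list fell and 1 rose, H2-Aa (adjusted p = 0.14) and Cd74 (adjusted p = 0.10) no longer passing, and with the minimum of 10 CPM 4 fell and 1 rose. H2-Oa, a chain of the B cell-biased inhibitor of peptide loading, had 24.2 and 24.5 CPM against 32.8 and 32.7 CPM (0.43, adjusted p = 0.0505) and did not pass. H2-DMb2 had the highest summed signal of the list, with 129.6 ± 0.963 CPM against 120.2 ± 14.2 CPM (-0.11, adjusted p = 0.37).

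The order of the levels, taken at the strongest peak of each gene, differed between the groups. In KL it ran from Ciita (30.4 ± 1.80 CPM) through Ebf1 (19.3 ± 4.05) and Cd79b (13.1 ± 2.63) to Pax5 (7.92 ± 0.618), Bank1 (7.77 ± 0.807), Blk (6.91 ± 0.808), Cr2 (6.19 ± 1.43) and Ms4a1 (5.33 ± 0.606), all as mean ± SD of 2 libraries. The first 3 were apart from their neighbours, and each of the last 4 overlapped the gene above it. In KLG4m/m Ebf1 came first (24.0 ± 0.262 CPM), then Ciita (22.1 ± 2.08), Bank1 (18.1 ± 0.221), Cd79b (17.2 ± 1.96), Blk (13.5 ± 5.92), Pax5 (10.9 ± 1.83), Ms4a1 (9.32 ± 1.70) and Cr2 (7.94 ± 0.156). From Cd79b to Ms4a1 each overlapped the gene above it. Bank1 thus had rank 5 of 8 in KL and rank 3 in KLG4m/m, and Ciita and Ebf1 changed places.

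**Figure D3:**
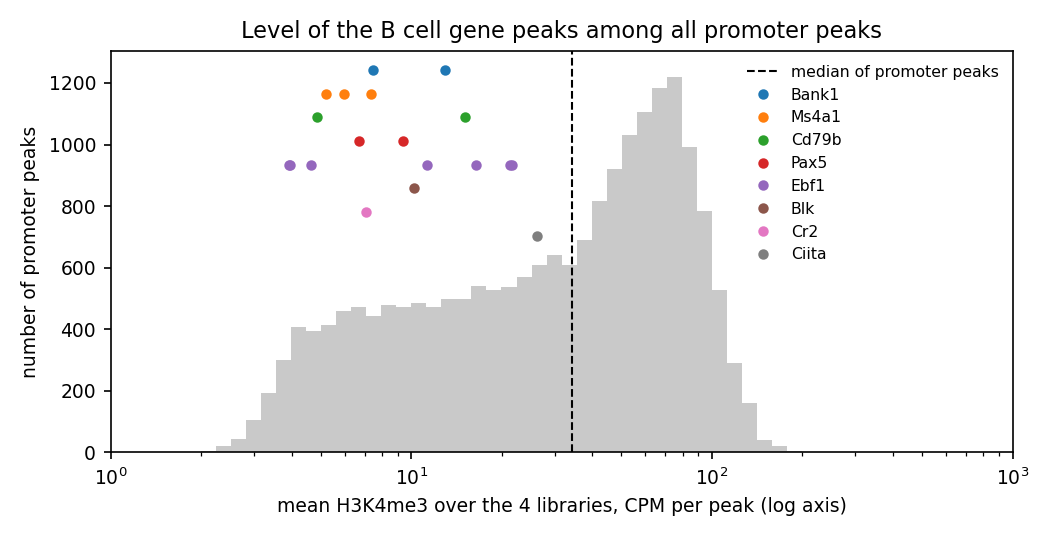
Histogram of the mean level over the 4 libraries (x axis, CPM per peak, log scale) of the 19989 promoter peaks in the table (y axis, number of peaks), with a dashed line at their median of 34.2 CPM. The dots mark the 19 member peaks by gene, set at heights that only separate the genes, and each lies left of the median.

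Summed over all 19 peaks, the members held 184.4 and 166.8 CPM in the KL libraries and 219.2 and 235.9 CPM in the KLG4m/m libraries, 175.6 ± 12.5 CPM against 227.6 ± 11.8 CPM (SD, n = 2), a ratio of 1.30 or 0.37 on the log2 scale. This is 0.0176% of all reads in peaks in KL and 0.0228% in KLG4m/m. Without Ciita the ratio was 1.42, and without Ciita and Bank1 it was 1.32, so Bank1 and Ciita moved the sum in opposite ways. The promoter peaks alone gave a ratio of 1.28 and the peaks outside promoters 1.39. Since the libraries are bulk and scaled to reads in peaks, more B cells in a sort and more of the mark per cell cannot be told apart.

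The profile of this sum over the 4 libraries was matched against those of 16254 genes with a mean of at least 10 CPM, by the Euclidean distance of centred log2(CPM + 1) values. The nearest were Hcfc1 (distance 0.0216), Gm46832 (0.0264), Usp36 (0.0265), Gm28188 (0.0278) and Hpcal1 (0.0318), with log2 fold changes of 0.36 to 0.39. None of these 5 is on a B cell or leukocyte list used here, and with 4 libraries such a profile is little more than the difference between the groups.

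Peaks of other genes near the members were read as well. Within 100 kb of the members the table lists 31 such peaks, of which 0 passed in either direction by edgeR. Beside the 3.10% of all peaks higher and 5.52% lower, no calls among 31 is near the background. At an unadjusted p under 0.05, 8 of the 31 passed, beside 8738 of all 35486 peaks. The 31 peaks had a median log2 fold change of 0.07 and a range of -0.77 to 0.70. The smallest edgeR adjusted p among them was 0.0588, near Ebf1. The pair of peaks near Blk, both of Fam167a, had log2 fold changes of 0.56 and 0.68 with the KLG4m/m libraries above the KL libraries, the pair near Pax5 -0.26 and 0.04, and the 7 near Cd79b ran from -0.04 to 0.20.

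Among B cell genes outside the members more rose than fell. The lists of these and of the other cell type genes, like the members, were drawn up with earlier results of these data known. Their counts and adjusted p-values are therefore a description and no separate support. Of 58 further B cell genes, 49 had a listed peak, 16 rose, 1 fell and 32 did not pass, beside 5.38% of all genes that rose and 9.63% that fell, and 40 were above 0 (50.3% of all genes). Their median log2 fold change was 0.24, where that of all genes was 0.00235. The surface and signalling lists held 14 of the 16 that rose. Of 15 surface genes, all with a listed peak, 7 rose and 0 fell (median 0.48). Fcer2a, the low-affinity IgE receptor, had 9.52 and 8.92 CPM in KL against 18.3 and 15.7 CPM in KLG4m/m (log2 fold change 0.88, edgeR adjusted p = 0.0034), Ly6d 9.52 and 8.92 against 15.7 and 17.3 CPM (0.83, adjusted p = 0.0066), and the inhibitory receptor Cd72 17.6 and 26.5 against 38.4 and 38.6 CPM (0.80, adjusted p = 7.6e-05). Cd37, a tetraspanin with the highest summed signal of the list, had 67.5 and 59.0 against 95.9 and 83.9 CPM (0.51, adjusted p = 6.5e-05). Cd22, chosen here after its value was seen, had 5.19 and 6.91 against 4.36 and 2.47 CPM (-0.81, adjusted p = 0.15) and did not pass.

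Among 13 signalling genes downstream of the receptor, 7 rose and 0 fell (median 0.29). They included Blnk, the adaptor beside Syk (0.70, edgeR adjusted p = 0.0053), Prkcb (0.52, adjusted p = 0.0022), Inpp5d, the inhibitory phosphatase SHIP1 (0.40, adjusted p = 2.6e-05) and Pik3ap1 (0.29), and Syk had the highest summed signal (148.7 ± 3.09 against 181.7 ± 6.96 CPM, 0.29, adjusted p = 0.0014). Syk, Inpp5d and Spi1 also serve myeloid cells. Of 14 further lineage transcription factors 13 had a peak and 2 rose, Bcl11a (0.53, adjusted p = 2.5e-05) and Spi1 (PU.1; 0.38, adjusted p = 0.00014), with a median of 0.15, and Bcl6, the strongest of them, had 209.7 ± 9.13 against 193.2 ± 13.4 CPM (-0.12, adjusted p = 0.20). The early B cell list had peaks at 3 of 7 genes, with Vpreb1, Igll1, Rag1 and Rag2 unlisted, and 0 calls by edgeR and 0 at an unadjusted p under 0.05. Il7r, the strongest of them, had 32.3 and 30.8 against 41.6 and 33.9 CPM. The plasma cell list had peaks at 5 of 9 genes, with Jchain, Mzb1 and Tnfrsf17 unlisted, and 1 call, the secretory protein Txndc5, which fell (-0.40, adjusted p = 0.016), while Prdm1, its strongest gene, had a log2 fold change of 0.02. The count of calls over these lists was 17, and it was 13 without KL replicate 1, 9 without KL replicate 2 and 0 without either KLG4m/m library (20 to 23 at an unadjusted p under 0.05).

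**Figure D4:**
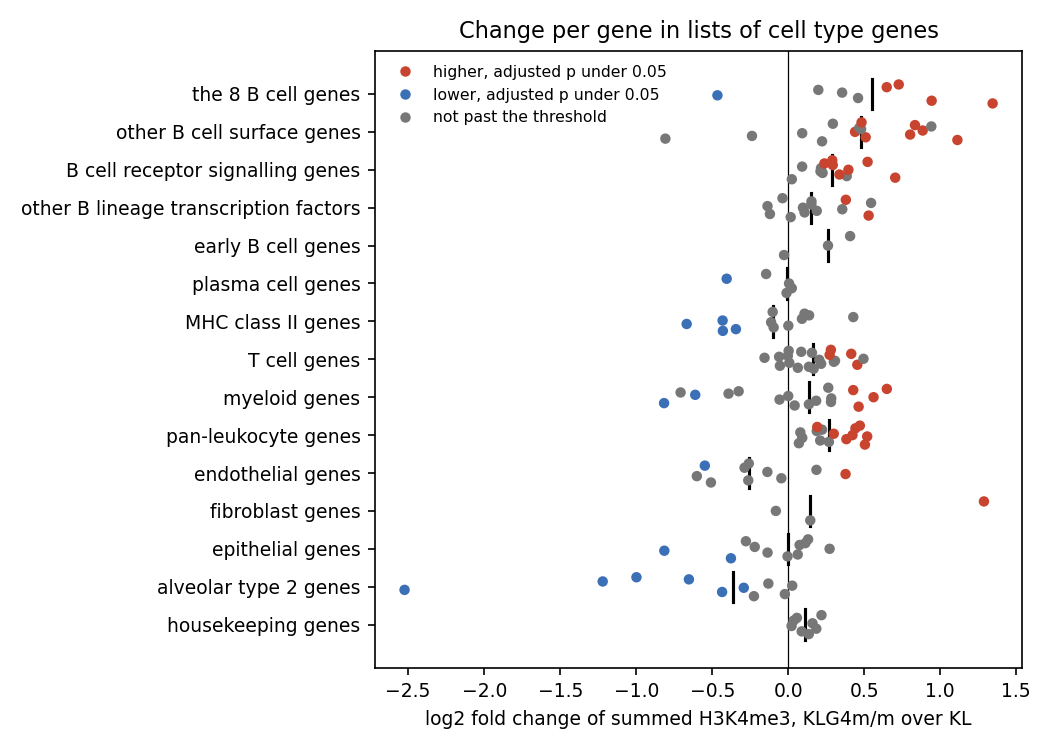
Log2 fold change of KLG4m/m over KL for the genes of each list (points), with each list's median as a vertical line and called genes set apart by colour. The medians run from -0.36 for alveolar type 2 genes to 0.48 for other B cell surface genes and 0.55 for the members, where all genes lie at 0.00235.

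Some markers of other leukocytes also rose, and their part in the result was not tested. Beside the counts below stand the 5.38% of all genes that rose and the 9.63% that fell. Of 17 pan-leukocyte genes 15 had a peak, and 8 rose and 0 fell, with a summed level of 1122.8 to 1137.3 CPM in KL and 1336.2 to 1339.2 CPM in KLG4m/m. Ptprc itself did not pass, while Evi2b (log2 fold change 0.52, edgeR adjusted p = 0.0081), Arhgdib (0.50, adjusted p = 6.7e-05), Was (0.47, adjusted p = 0.0488), Rac2 (0.44) and Itgal (0.42) did, and Lcp1, the strongest of the list, did not (0.08). All 20 T cell genes had a peak, 4 rose, among them Cd3d (0.45), Lat (0.41) and Zap70 (0.28), 0 fell and 16 did not pass, with summed levels of 823.5 to 842.1 against 936.6 to 957.4 CPM, and Bcl11b, the strongest, did not pass (0.17). Of 18 myeloid genes 17 had a peak, with 4 higher, 2 lower and 11 not past the threshold, and summed levels of 458.8 to 478.2 against 515.1 to 517.0 CPM. Itgam (0.56), S100a9 (0.65), Adgre1 (0.46) and S100a8 (0.43) rose, while Lyz2 (-0.61) and Chil3 (-0.82) fell, both of which alveolar macrophages hold at high levels and the first of which alveolar type 2 cells also express. Cd14, the strongest, had a log2 fold change of 0.04. Laptm5, Dock2 and Marco had no listed peak, so that no level can be given for them, and every other gene of these lists had reads in each library.

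Epithelial and alveolar genes that passed fell. Of 12 alveolar type 2 genes 10 had a peak, 6 fell and 0 rose, with a summed level of 586.2 to 594.2 CPM in KL and 472.2 to 494.0 CPM in KLG4m/m. Lamp3 (-2.52), Sftpa1 (-1.22), Sftpd (-0.998), Sftpb (-0.65) and Etv5 (-0.43) fell most, and Cebpa, the strongest, did not pass (-0.02). The Lamp3 value rests on 1 weak peak, with 26 and 23 reads in KL against 4 and 4 in KLG4m/m. Of 12 epithelial genes 11 had a peak and 2 fell, Epcam and Cdh1 (-0.38, edgeR adjusted p = 0.0040). Of 10 endothelial genes, all with a peak, Erg rose (0.38) and Tek fell (-0.55), and Pecam1, which encodes CD31, did not pass (0.19, adjusted p = 0.22; -0.09 at its peak nearest the start). Of 8 fibroblast genes 3 had a peak and Pdgfrb rose (1.29, edgeR adjusted p = 0.016), while Pdgfra, the strongest, had -0.08. Pdgfrb too rests on 1 weak peak, with 9 and 10 reads in KL against 22 and 23 in KLG4m/m. Of 10 housekeeping genes 8 had a peak and 0 passed by edgeR (1 at an unadjusted p under 0.05), with a median of 0.11 and 0.14 at Actb, the strongest. Without either KLG4m/m library none of these marker genes passed.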

How the data were processed

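CUT&Tag for H3K4me3 gave 2 KL and 2 KLG4m/m libraries of sorted lung tumor cells, grouped by their labels; 4 H3K27ac libraries were not analysed here. The authors trimmed reads with Trim Galore 0.6.10, mapped them with BWA 0.7.15, removed duplicates with Picard 2.17.3, called peaks with MACS2 2.2.7.1 and annotated them with HOMER 4.11.1, as the submitters' processing notes and the methods name these tools. The authors deposited 1 table of 35486 peaks with whole-number read counts per library, without normalization, and CPM scaled to reads in peaks (recomputed here to within 4.98e-07). Its signed distance to the start site is the authors'. Its fold changes and p-values between the groups were not used. The methods' Ensembl release is of GRCm38, whereas contig names in the table are of a later build, and positions are printed as listed.

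Counts per peak, and counts summed over each gene's peaks, were fitted with edgeR 4.0.16 (quasi-likelihood test, TMM, no filter, no covariate, common dispersion 0.00133 for peaks; R 4.3.3), two-sided, and p-values were adjusted by the Benjamini-Hochberg method over the 35486 peaks or 20871 genes, with a threshold of 0.05. With 2 libraries a group, an exact permutation test cannot go below p = 0.333. Libraries of 1 group differed by little more than counting error (chi-square per degree of freedom 1.13 in KL and 1.23 in KLG4m/m, against 2.37 to 2.80 between groups). The libraries held 3244495 to 3463731 reads in peaks, so that a peak of 8 to 110 reads carries a large counting error. Alternatives were DESeq2 1.42.0, scaling by total reads, median centring, limma 3.58.1 on log2(CPM + 1), a minimum mean of 10 CPM, an added 1.5-fold change, the peak nearest the start site, and leaving out each library. The sums without Ciita or Bank1 were added after the values were seen. The peak fit was tested on simulated data.

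The members and the lists were chosen with earlier results of these data known. Named genes were all members and their peaks; from each other list the gene with the highest mean CPM and up to 5 called genes of largest change; Ptprc, Epcam, Pecam1 and Cd74; the 5 nearest profiles; and called peaks of other genes within 100 kb. S100a8, H2-Oa, Cd22, Rfx5, Rfxap and the genes named as unlisted fall outside this rule and were chosen after their values were seen. Some items under this rule are not reported here.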

Additional observations from a re-analysis of the deposited data

How the results depend on the processing

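The direction of the 8 member genes was kept under every alternative that gave a value and without each library (Cr2 was not tested with the minimum of 10 CPM), while the calls depended on the test. With DESeq2 the count of calls fell to 0 member peaks (4 at an unadjusted p under 0.05; 10 of 19 had no adjusted p), 1 member gene, 5 other B cell genes, 1 MHC class II gene and 3 other leukocyte genes, against 4, 5, 17, 4 and 18 with edgeR. With limma on log2(CPM + 1) it was 0 in all 5 sets, with 9, 6, 21, 4 and 21 at an unadjusted p under 0.05. Over the whole table DESeq2 called 33 peaks higher and 250 lower, and 122 genes higher and 337 lower. Limma called 0 peaks, and 36 genes higher and 83 lower, with 7330 peaks and 4767 genes at an unadjusted p under 0.05. With the peak nearest the start site 2 member genes passed, beside 733 of all genes higher and 1726 lower. An added 1.5-fold change left 5 other B cell, 1 MHC class II and 3 other leukocyte genes, beside 378 of all genes higher and 990 lower. Leaving out 1 library gave 0 to 3 member peaks, 0 to 3 member genes, 0 to 13 other B cell, 0 to 3 MHC class II and 0 to 10 other leukocyte genes; the 0 came without either KLG4m/m library. The test's median degrees of freedom for peaks, those borrowed across peaks included, were 26.5 with all libraries, 3.63 without a KLG4m/m library and 35500 without a KL library, and calls over all peaks fell in each case; the cause was not tested. Median centring of the gene sums moved the median log2 fold change of all genes from 0.00235 to 0.0934. With that shift 2839 genes were higher and 1424 lower in all, against 1122 and 2010. Of the member genes 6 were higher and 0 lower, against 4 and 1, with Cd79b and Ebf1 added and Ciita lost. Past the threshold were then 24 other B cell, 26 other leukocyte and 3 MHC class II genes (1 higher, 2 lower). The summed member signal stayed between 0.25 and 0.39 under the alternatives and between 0.30 and 0.45 without 1 library. The sign turned at the Ms4a1 peak at 1981 bp (-0.24 to 0.61 over the left-out libraries), the Ebf1 peak at 45 kb (-0.57 to 0.30) and Pecam1 (-0.087 at its peak nearest the start). Why these differ was not tested. No paired analysis was possible because the groups share no replicate number. Peaks of 8 to 110 reads limit what can be told apart at this depth.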
